A study of Homo sapiens with 7 samples.

Results

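Peaks of RNA polymerase II (Pol II), SPT5, TRIM28, O-GlcNAcase (OGA) and the sugar O-GlcNAc were described at 8 genes from classes known for promoter-proximal pausing or rapid induction. The genes were 6 immediate early genes, MYC, FOS, JUN, JUNB, EGR1 and IER2, and 2 genes of the 70 kDa heat shock family, HSPA1B and HSPA8. They were taken by name and not by a threshold on a measured value, though with earlier results of these data known. A peak was counted when it overlapped the hg19 span of the gene or the 3 kb on either side by at least 1 bp. In all, 82 of the 132744 peaks on chromosomes 1 to 22 and X fell in these 8 windows: 18 of 19889 for Pol II, 31 of 56040 for SPT5, 23 of 45003 for TRIM28, 3 of 2561 for OGA and 7 of 9251 for O-GlcNAc. The windows were 7816 to 11366 bp wide.

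The peaks come from chromatin immunoprecipitation and sequencing (ChIP-seq) of BJAB, a human B-cell line that the labels derive from Burkitt's lymphoma, at multiple passages and with no treatment or genetic change named. All libraries shared fixation in 1% formaldehyde for 5 min. Each was made with 10 µg of antibody: 8WG16 for Pol II, RL2 for O-GlcNAc, and antibodies to SPT5, TRIM28 (also called TIF1b) and OGA (also called NCOAT). Each target had 1 library and no replicate, so no difference between genes or targets was tested, and every value below describes these lists. The reads behind the lists and the mouse and rabbit IgG libraries were not analysed here, so the depth is unknown. Marker genes of B cells were not examined.

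At genes of these classes, transcription can be controlled after Pol II has been loaded. Pausing itself was not measured here, and not every gene described need be controlled in this way. Pol II starts, stops a short way into the gene under the hold of NELF and of DSIF, whose large subunit is SPT5, and is released by the kinase P-TEFb, after which SPT5 travels on with it. Heat shock and growth signals raise transcription of many such genes within minutes, and heat shock genes were among the earliest cases in which a paused polymerase was mapped. TRIM28, best known as a co-repressor of KRAB zinc finger proteins, has also been described as a factor that holds Pol II at promoters. OGA strips O-GlcNAc, a single sugar, from proteins inside the cell, Pol II among them. The series title names OGA as an elongation factor coupled to SPT5 and TIF1b, and these genes show, site by site, where each of these factors was called.

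Promoter sequence is shown for 6 of the genes because most of the peaks over or nearest the start, which the summit positions below rest on, lie on or beside it. JUN, which had no peak, is shown for comparison. RefSeq (GRCh38.p14) gave an entry for 7 of the 8 genes; MYC was not among them. The 250 bases upstream of the RefSeq start are printed 5′ to 3′ on the strand of the gene. Capitals mark matches, on either strand, to either of 2 core forms of the serum response element (10 bases, marked in EGR1), the CRE TGACGTCA and its shorter core TGACG, the heat shock element as GAANNTTC or TTCNNGAA, the TATA box TATAAA, the GC box GGGCGG and the CCAAT box. The shorter core lies within TGACGTCA, and neighbouring matches can share bases. The RefSeq start belongs to another build than the peaks and need not be the first base of the hg19 span.
EGR1: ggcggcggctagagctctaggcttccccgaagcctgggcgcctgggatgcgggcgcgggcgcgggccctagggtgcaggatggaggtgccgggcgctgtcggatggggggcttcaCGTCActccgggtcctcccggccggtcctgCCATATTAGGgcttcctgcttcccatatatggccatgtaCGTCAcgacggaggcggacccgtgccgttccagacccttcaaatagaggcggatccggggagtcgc
JUNB: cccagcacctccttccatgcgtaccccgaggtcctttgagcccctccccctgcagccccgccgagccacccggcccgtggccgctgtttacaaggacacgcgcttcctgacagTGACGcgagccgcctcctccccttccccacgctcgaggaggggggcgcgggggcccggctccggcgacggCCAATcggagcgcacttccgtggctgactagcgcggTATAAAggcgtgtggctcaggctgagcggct
JUN: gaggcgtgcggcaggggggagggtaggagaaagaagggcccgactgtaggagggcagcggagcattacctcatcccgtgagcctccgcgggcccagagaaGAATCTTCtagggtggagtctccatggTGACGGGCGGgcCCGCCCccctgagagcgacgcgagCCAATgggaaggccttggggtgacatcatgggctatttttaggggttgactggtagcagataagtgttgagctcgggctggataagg
IER2: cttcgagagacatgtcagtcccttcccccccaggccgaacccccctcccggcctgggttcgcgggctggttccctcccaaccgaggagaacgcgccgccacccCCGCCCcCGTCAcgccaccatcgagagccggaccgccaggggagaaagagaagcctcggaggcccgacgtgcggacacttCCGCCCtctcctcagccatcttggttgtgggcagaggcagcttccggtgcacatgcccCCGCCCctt
HSPA1B: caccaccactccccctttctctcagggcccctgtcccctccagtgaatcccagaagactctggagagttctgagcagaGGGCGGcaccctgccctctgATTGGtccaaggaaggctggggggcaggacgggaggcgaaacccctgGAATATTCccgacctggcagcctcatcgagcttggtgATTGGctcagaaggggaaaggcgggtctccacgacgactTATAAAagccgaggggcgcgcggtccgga
HSPA8: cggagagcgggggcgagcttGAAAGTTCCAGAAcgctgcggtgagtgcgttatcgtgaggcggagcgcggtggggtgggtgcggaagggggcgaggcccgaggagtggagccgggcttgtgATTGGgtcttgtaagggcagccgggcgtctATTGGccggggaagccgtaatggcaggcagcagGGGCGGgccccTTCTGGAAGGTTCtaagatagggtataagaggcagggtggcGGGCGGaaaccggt

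Serum response factor drives many immediate early genes through the serum response element. EGR1 alone of the 7 genes matched either core form searched, from 105 to 96 bases before its start. The form it matched was held by 0.0313% of the 35116 promoters of the table. Only these exact letters in the upstream window were searched, so other forms of the element, or copies further upstream, would be missed. The lack of a match, as at FOS, thus does not show that the element is absent. The heat shock element GAANNTTC was found upstream of HSPA1B, HSPA8 and JUN, against 5.78% of all promoters. At HSPA8 it overlapped TTCNNGAA at both of its places, and TTCNNGAA was found in 6.62% of all promoters. TATAAA lay from 33 to 28 bases before the start of FOS, 31 to 26 before that of JUNB and 29 to 24 before that of HSPA1B, against 10.7% of all promoters with the letters anywhere in the window. GGGCGG was found at 5 of the 7 genes (42.6% of all promoters), TGACG at 5 (21.2%) and CCAAT at 4 (32.0%). TGACGTCA, present in 1.65% of all promoters, and the other serum response core form searched, in 0.0313%, were found at 0 of the 7. Among 15 other immediate early genes with an entry, of 21 listed, 0 held the core form of EGR1, 1 held the other form and 1 held GAANNTTC, and among 16 of 17 other heat shock genes 9 held GAANNTTC. A match is a run of letters and not a measured binding site.

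Pol II, SPT5 and TRIM28 were each called at 7 of the 8 genes, O-GlcNAc at 6 and OGA at 2. The gene left without Pol II, SPT5 and TRIM28 was in each case JUN. Of all consecutive 10-kb tiles of the chromosomes, which are close to these windows in width, 5.07% held a Pol II peak, 9.41% an SPT5 peak, 11.4% a TRIM28 peak, 0.817% an OGA peak and 2.92% an O-GlcNAc peak. Tiles were laid without regard to genes, so these shares are not the level at other genes, which was not computed. JUNB and IER2 had peaks of all 5 targets, as did 0.212% of tiles. FOS, EGR1, HSPA1B and HSPA8 had every target but OGA, and MYC had neither OGA nor O-GlcNAc.

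**Figure D1:**
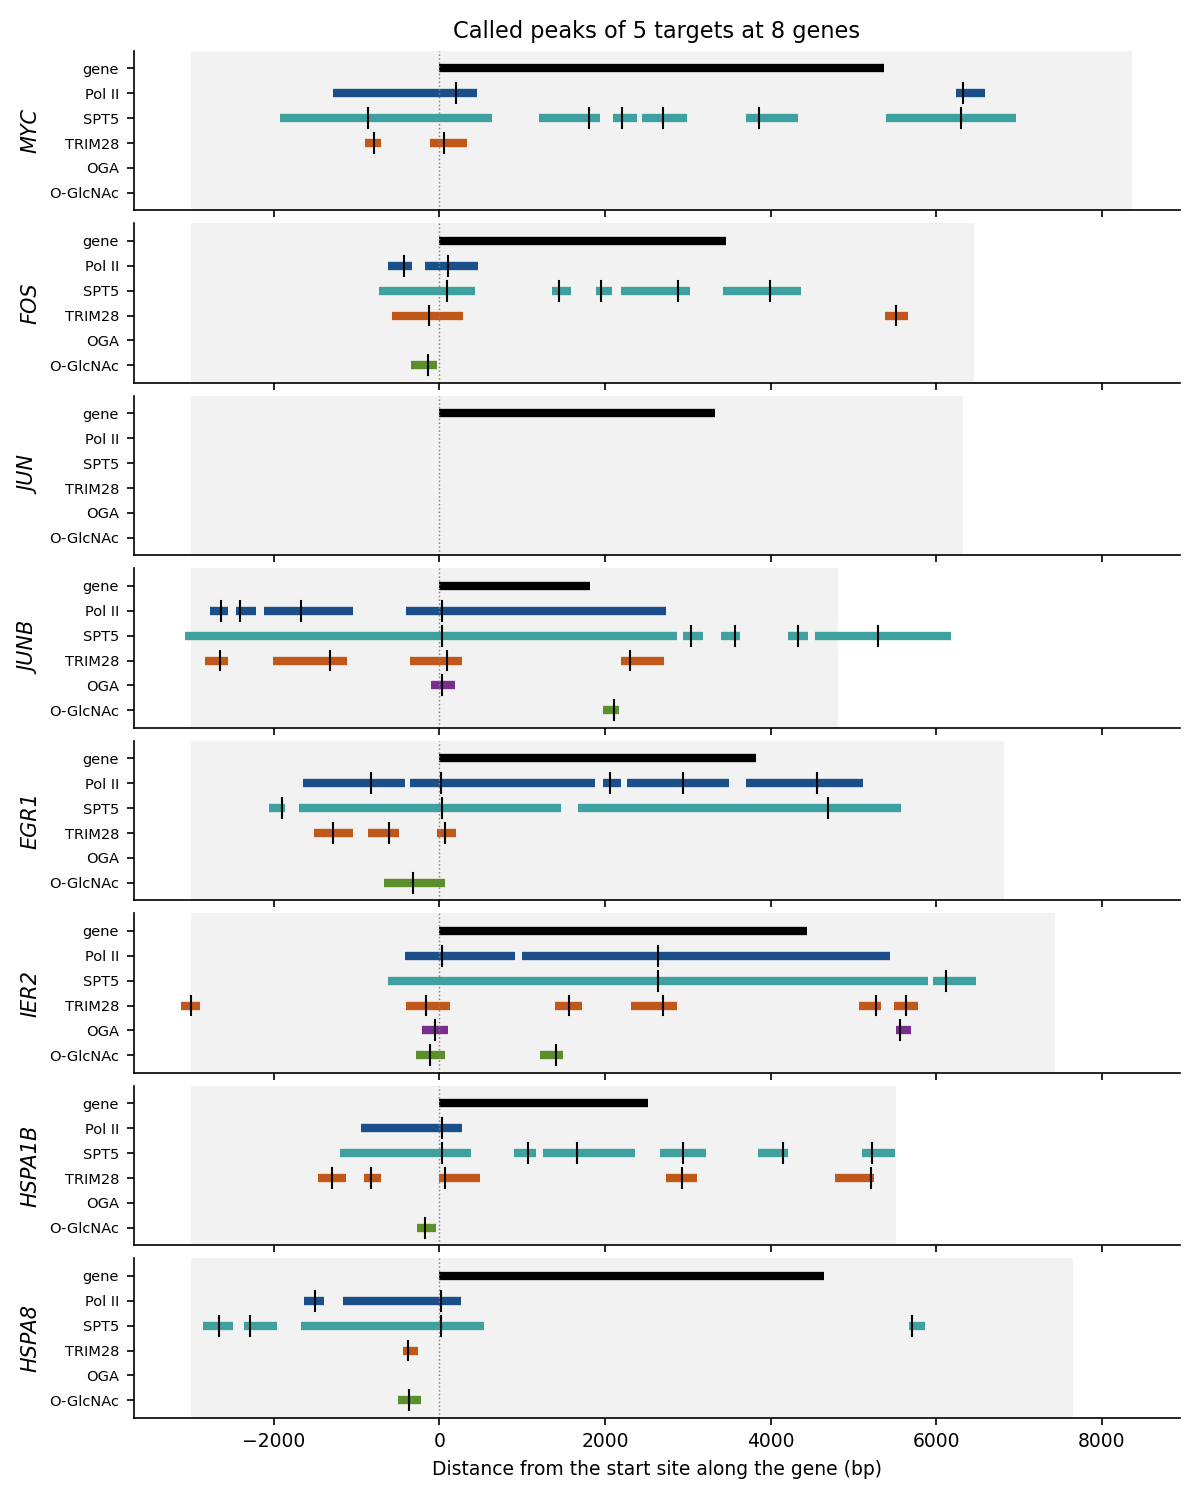
Called peaks (coloured bars) and their summits (black ticks) at the 8 genes; the horizontal axis is the distance from the start of the gene in bp along its direction, the black bar is the gene and the grey band the window of 3 kb on either side. Pol II peaks run over nearly the whole of JUNB, EGR1 and IER2, stay at the start of FOS, HSPA1B and HSPA8, and leave the body of MYC free; JUN has no peak.

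JUN, a subunit of the transcription factor AP-1, lay in a wide stretch without peaks. The nearest Pol II, SPT5 and TRIM28 summits lay 32420, 32416 and 32269 bp upstream of its start, in peaks of 3.99, 4.16 and 3.56-fold enrichment. The nearest O-GlcNAc summit lay 84095 bp downstream of that start, and the nearest OGA summit 2958360 bp upstream. JUNB, which encodes a related AP-1 subunit, carried 4 Pol II and 5 SPT5 peaks. That no peak was called at JUN sets no upper limit on occupancy, since the reads and the depth are unknown.

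At the other 7 genes a Pol II peak covered the start, and its summit lay 23 to 201 bp downstream, at a median of 31 bp. Fold enrichment, the authors' ratio of a peak over their background, was compared only within a list. At HSPA8, which encodes the constitutive chaperone HSC70, the peak at chromosome 11, 122932577 to 122934006, had 16.8-fold enrichment. At JUNB, the peak at chromosome 19, 12901905 to 12905045, had 16.7-fold enrichment. At FOS, the AP-1 partner of the JUN proteins, the peak at chromosome 14, 75745304 to 75745943, had 16.5-fold enrichment. By fold enrichment these 3 stood level, above 99.5%, 99.5% and 99.4% of all Pol II peaks and at ranks 104, 108 and 121 of 19889. By the authors' −log10 p they did not: JUNB stood above 99.9% and FOS above 99.8% of the list, but HSPA8 above 93.5%.

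The stress-induced chaperone gene HSPA1B followed, with 11.9-fold enrichment at chromosome 6, 31794567 to 31795784, above 95.8% of the list. MYC, a master regulator of cell growth, had 8.99-fold enrichment at chromosome 8, 128747035 to 128748772 (86.1%). EGR1, a zinc finger transcription factor, had 7.32-fold enrichment at chromosome 5, 137800828 to 137803061, at rank 4966 (75.03%). The lowest by fold enrichment was IER2, which encodes a nuclear immediate early protein, with 6.54-fold enrichment at chromosome 19, 13260867 to 13262197 (68.1%). In all, 6 of the 7 start peaks stood above 75% of the list, EGR1 only just, where by construction 25.0% of Pol II peaks stand. The median of all Pol II peaks was 4.90-fold. Of the 7 start peaks, 6 were wider than 1 kb, against 11.5% of all Pol II peaks, and FOS had the narrow one, of 640 bp. The whole list also holds peaks away from gene starts, and the level at other gene starts was not computed.

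**Figure D2:**
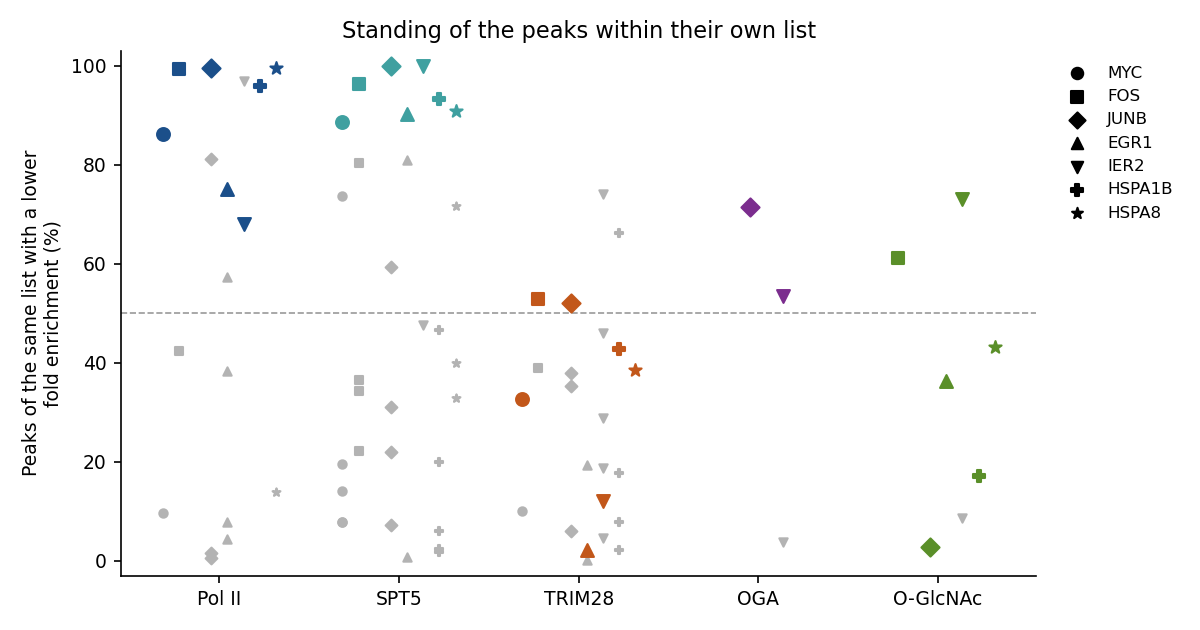
Share of the same list with a lower fold enrichment (vertical axis, %) for each peak of the windows, by target; large coloured symbols are the peak over or nearest to the start of a gene, small grey symbols the other peaks, and the dashed line is the middle of the list. All Pol II and SPT5 start peaks lie above the line, at 68.1% to 99.5% and 88.5% to 99.9%, and TRIM28 peaks at the starts lie at 2.15% to 52.9%.

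Along the genes, Pol II peaks took 2 shapes. In MYC, FOS, HSPA1B and HSPA8 they covered 8.54%, 13.4%, 10.8% and 5.77% of the gene, and 0% of what lies beyond its first 500 bp. In JUNB, IER2 and EGR1 they covered 100%, 98.1% and 90.3% of the gene, and 100%, 97.9% and 88.8% beyond the first 500 bp. No gene lay between these values. As at JUN, a stretch without a called peak sets no upper limit on occupancy. The shapes are those seen with the Pol II antibody used. Whether it binds all forms of Pol II alike, at the start and along the gene, was not tested. With only peaks of a −log10 q of at least 5, 3 genes again had over 50% of that stretch covered. By fold enrichment the start peaks of these 3 genes were not the highest, since FOS and HSPA8 stood as high as JUNB, and EGR1 and IER2 lowest. That order rests on the measure: by −log10 p, EGR1 stood above 96.7% of the list, behind JUNB and FOS only, followed by MYC (93.7%), HSPA8 (93.5%), HSPA1B (87.2%) and IER2 (56.5%).

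At IER2 the highest Pol II summit was not at the start of the span. The peak at chromosome 19, 13262281 to 13266723, had 12.6-fold enrichment (above 96.9% of the list) with its summit 2636 bp inside the gene, against 6.54-fold at the start. Transcript starts inside the span were not used here, so the first base of the span may not be the main start of IER2. In the RefSeq table of another build, STX10 lies almost directly upstream of IER2, and peaks at the start of the span cannot be told apart between the 2 genes. Both limits hold for every value given at the start of IER2, those of SPT5, TRIM28, OGA and O-GlcNAc included, and for its cover beyond the first 500 bp. EGR1 had 5 Pol II peaks, of 4.09, 7.32, 2.41, 2.63 and 5.49-fold in order along the gene. The last of them had its summit 734 bp past the gene's end. MYC had a low Pol II peak of 2.71-fold whose summit lay 956 bp past the end of its span, and with the stricter −log10 q of 5 only EGR1 was left with such a summit. The RefSeq entry of MYC, in another build, is longer than the span by more than this distance, so that the summit, and the SPT5 summit past the span's end, may lie inside the gene. At which end the extra length lies was not determined, so the first base of the span may not be the start of MYC. That limit holds for every distance given from the start of MYC. Upstream of JUNB a separate Pol II peak of 8.13-fold (above 81.1% of the list) had its summit 1676 bp before the start. In the RefSeq table JUNB overlaps another gene, HOOK2, and a peak gives no strand, so that signal from the 2 genes cannot be told apart.

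**Figure D3:**
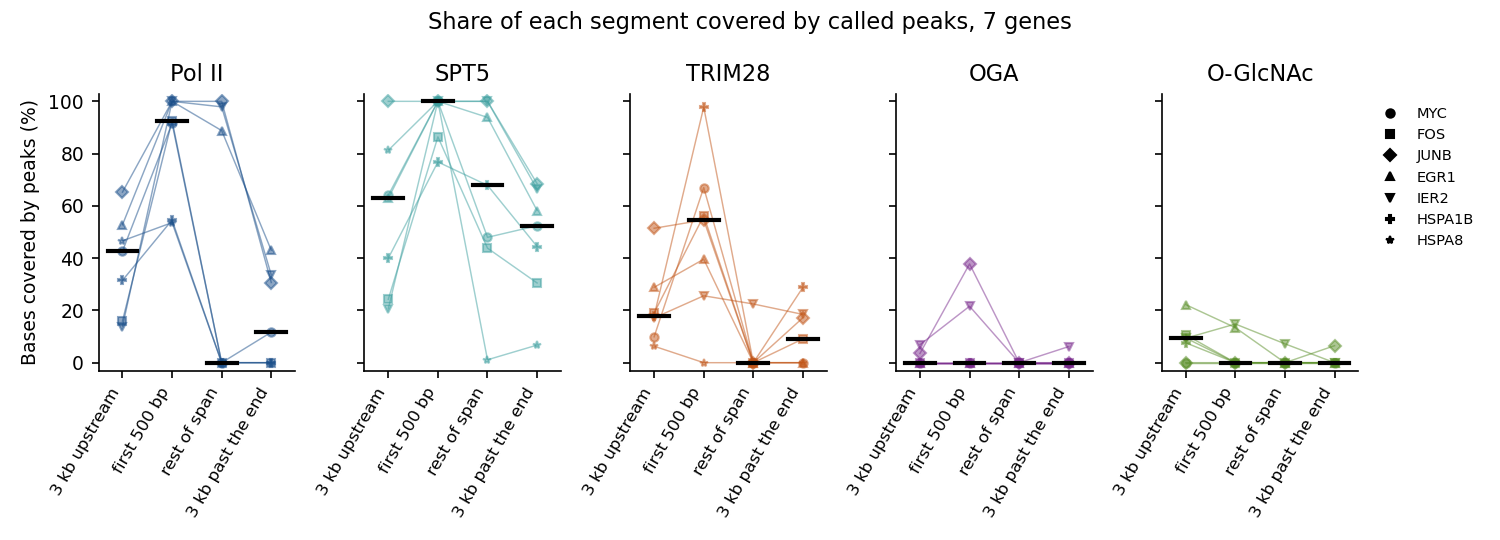
Share of bases covered by called peaks (vertical axis, %) in 4 segments of each of the 7 genes with peaks, by target; symbols joined by thin lines are genes and thick black bars medians over the 7. Pol II falls to 0% after the first 500 bp at 4 genes and stays at 88.8% to 100% at 3, while SPT5 covers a median of 67.9% of that stretch.

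SPT5 was called over the start of the same 7 genes, always in a peak wider than 1 kb (1160 to 6523 bp), against 16.3% of all SPT5 peaks. All 7 stood above 75% of the list, where 25.0% of SPT5 peaks stand. Both shares are of all SPT5 peaks, and the level at other gene starts was not computed. JUNB had 20.0-fold enrichment, rank 67 of 56040, in a peak of 5942 bp. IER2 had 19.6-fold enrichment, rank 79, in a peak of 6523 bp that took in the entire gene. FOS had 12.1-fold, HSPA1B 10.3-fold, HSPA8 9.23-fold, EGR1 9.02-fold and MYC 8.40-fold enrichment. MYC, the lowest, still stood above 88.5% of the list, whose median was 3.31-fold.

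Called SPT5 peaks reached further along the genes than called Pol II peaks did. At MYC, SPT5 peaks covered 48.0% of the gene beyond its first 500 bp, at FOS 43.8% and at HSPA1B 67.9%, where Pol II peaks covered 0%. The 4 peaks inside MYC were low, at 2.34 to 2.64-fold enrichment, and with a −log10 q of at least 5 the cover there was 17.9%, against 37.2% at FOS and 54.9% at HSPA1B. HSPA8 differed, with 1.11% of that stretch covered by SPT5. Past the end of the gene, an SPT5 summit was found at all 7 genes with peaks, in 12 peaks. It was highest at EGR1 (6.004-fold, 870 bp past the end), FOS (5.88-fold, 540 bp) and MYC (4.65-fold, 929 bp past the span), and with a −log10 q of at least 5 it was left at 6 genes. The SPT5 list is 56040 peaks long against 19889 for Pol II, so a weaker signal may be called in it. The Pol II antibody may also not bind all forms of Pol II alike, so its peaks need not show total Pol II. What part either has in the further reach of SPT5 was not tested. Of the 31 SPT5 peaks of the windows, 9 overlapped Pol II and 9 overlapped TRIM28. The shares in the whole list were 29.1% and 30.7%, so that these counts sit at the background.

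Every one of the 18 Pol II peaks overlapped SPT5, as 95.5% of all Pol II peaks did. TRIM28 overlapped 12 of the 18 (59.9% of all Pol II peaks), O-GlcNAc 9 (40.2%) and OGA 2 (6.03%). With counts this small, these shares are not set apart from those of the whole list. Among the 7 Pol II peaks over a start, 7 overlapped TRIM28 and 6 overlapped O-GlcNAc. SPT5, TRIM28 and O-GlcNAc together were found at those 6, all but MYC, and at 9 of the 18 Pol II peaks of the windows, against 27.8% of all Pol II peaks. Of the 7 start peaks, 6 were wider than 1 kb, and a wider peak has more room to overlap others. The share for Pol II peaks at other starts was not computed. At JUNB the O-GlcNAc overlap lay at the far end of a Pol II peak of 3141 bp. Peaks of all 4 other targets overlapped 2 of the 7 start peaks, at JUNB and IER2, against 2.79% of all Pol II peaks. By summits within 250 bp instead of overlap, 8 of the 18 Pol II peaks had SPT5 and 3 had O-GlcNAc.

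TRIM28 was called at or near the starts, but by fold enrichment its peaks there did not stand high in the list. Its peak covered the start of MYC (3.02-fold), FOS (3.59-fold), JUNB (3.56-fold), EGR1 (2.05-fold) and IER2 (2.49-fold). Within the TRIM28 list, whose median was 3.50-fold, these stood above 32.6%, 52.9%, 52.2%, 2.15% and 12.1%, and 0 of the 5 above 75%, where 25.0% of TRIM28 peaks stand. Ranked by the authors' −log10 p instead of fold enrichment, the median standing of the 5 rose from 32.6% to 68.6%. At HSPA1B the nearest TRIM28 peak began 1 bp after the start (3.28-fold), and at HSPA8 it lay from 443 to 255 bp before it (3.17-fold).

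The highest TRIM28 peaks of IER2, HSPA1B and EGR1 were away from the start. At IER2 a peak of 4.50-fold, above 74.0% of the list, straddled the upstream edge of the window and overlapped neither Pol II nor SPT5. At HSPA1B a peak of 4.07-fold had its summit 1300 bp upstream, and at EGR1 one of 2.70-fold lay 603 bp upstream. Beyond the first 500 bp of the gene, TRIM28 peaks were found at IER2 only among the 7 genes, where they covered 22.5%, or 8.34% with a −log10 q of at least 5. Of the 23 TRIM28 peaks in the windows, 21 overlapped SPT5 and 17 overlapped Pol II, against 43.7% and 28.6% of the whole list. The share for TRIM28 peaks at other genes was not computed.

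OGA, the enzyme that takes O-GlcNAc off, was called at 2 genes. At JUNB its peak ran from 12902204 to 12902498 on chromosome 19, from 106 bp before the start to 188 bp after it, with 4.05-fold enrichment (above 71.5% of the OGA list). At IER2 it ran from 13261076 to 13261389 on the same chromosome, from 206 bp before the start to 107 bp after it, with 3.43-fold enrichment (53.4%). Both OGA peaks overlapped Pol II, SPT5 and TRIM28. Another, low OGA peak of 2.19-fold (above 3.83%) lay past the end of IER2, with its summit 1133 bp beyond it, on SPT5 and TRIM28 but without Pol II. All 3 overlapped TRIM28, as 90.0% of OGA peaks did, and SPT5, as 71.9% did; 2 overlapped Pol II (46.2% of the list) and 1 O-GlcNAc (24.1%). JUNB and IER2 were also 2 of the 3 genes with Pol II peaks over most or all of the gene, while EGR1, the other one, had no OGA peak. Signal at JUNB and IER2 may belong in part to HOOK2 and STX10, as said above, and a link was not tested. The OGA list is the shortest, and no call at the other 6 genes is no measure of absence.

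O-GlcNAc and OGA were called together at 1 start only. At IER2 an O-GlcNAc peak of 5.06-fold, above 73.1% of its list, ran from 281 bp before the start to 73 bp after it and overlapped the OGA peak. At JUNB the OGA start had no O-GlcNAc peak. The O-GlcNAc peak of JUNB, of 2.02-fold (above 2.85%), lay past the gene's end, with its summit 296 bp beyond it. Conversely, O-GlcNAc peaks without OGA had their summit upstream of the start at FOS (4.37-fold), EGR1 (3.37-fold), HSPA1B (2.71-fold) and HSPA8 (3.62-fold). These stood above 61.2%, 36.4%, 17.2% and 43.2% of the O-GlcNAc list, whose median was 3.88-fold. A second, low O-GlcNAc peak of IER2 (2.38-fold) had its summit 1408 bp inside the gene.

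All 7 O-GlcNAc peaks overlapped Pol II and all 7 overlapped SPT5, against 80.8% and 88.2% of the whole list. TRIM28 overlapped 5 of the 7 (59.5% of the list) and OGA 1 (6.70%). O-GlcNAc peaks lay mostly just before the start: they covered it at 2 genes, EGR1 and IER2, and had a summit within 500 bp of it at 5. Without flanks, the spans of EGR1 and IER2 alone held an O-GlcNAc peak, 2 genes against 6 with the flanks.

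The summits kept a recurrent order along 5 of the genes, with O-GlcNAc before the start and Pol II after it. O-GlcNAc summits lay 139 bp before the start at FOS, 313 bp at EGR1, 118 bp at IER2, 171 bp at HSPA1B and 368 bp at HSPA8. They were thus 240, 336, 149, 209 and 393 bp upstream of the Pol II summits of the same genes. Over all O-GlcNAc peaks that overlap Pol II, the nearest Pol II summit was a median of 156 bp away, with quartiles of 106 and 213 bp, and direction was not available there. The printed sequences cover only the upstream side, and the data do not place O-GlcNAc on any of the marked letters.

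SPT5 and Pol II summits nearly coincided at 5 starts: they were 14 bp apart at FOS, 3 at JUNB, 11 at EGR1, 1 at HSPA1B and 7 at HSPA8. The median over all SPT5 peaks with Pol II was 24 bp. MYC and IER2 were the exceptions. At MYC the SPT5 summit lay 859 bp before the start, 1060 bp upstream of the Pol II summit, near a TRIM28 summit at 791 bp. At IER2 the SPT5 peak over the start had its summit 2635 bp inside the gene, 1 bp from the summit of the higher Pol II peak there. TRIM28 summits fell on either side of the start, after it at MYC, JUNB, EGR1 and HSPA1B (52, 92, 64 and 70 bp) and before it at FOS, IER2 and HSPA8 (129, 158 and 384 bp). Their median of 52 bp turned to -38.5 bp without HSPA1B. The O-GlcNAc summit was 10 bp from that of TRIM28 at FOS, 40 bp at IER2 and 16 bp at HSPA8, where TRIM28 lay before the start. It was 377 bp away at EGR1, 241 bp at HSPA1B and 2019 bp at JUNB, where TRIM28 lay after it. O-GlcNAc itself lay before the start at all of these genes but JUNB, so a TRIM28 summit on that side tends to be nearer to it by construction. At JUNB the OGA summit, 37 bp after the start, was 6 bp from Pol II and 55 bp from TRIM28, and at IER2, 53 bp before it, OGA was 84 bp from Pol II, 65 bp from O-GlcNAc and 105 bp from TRIM28.

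**Figure D4:**
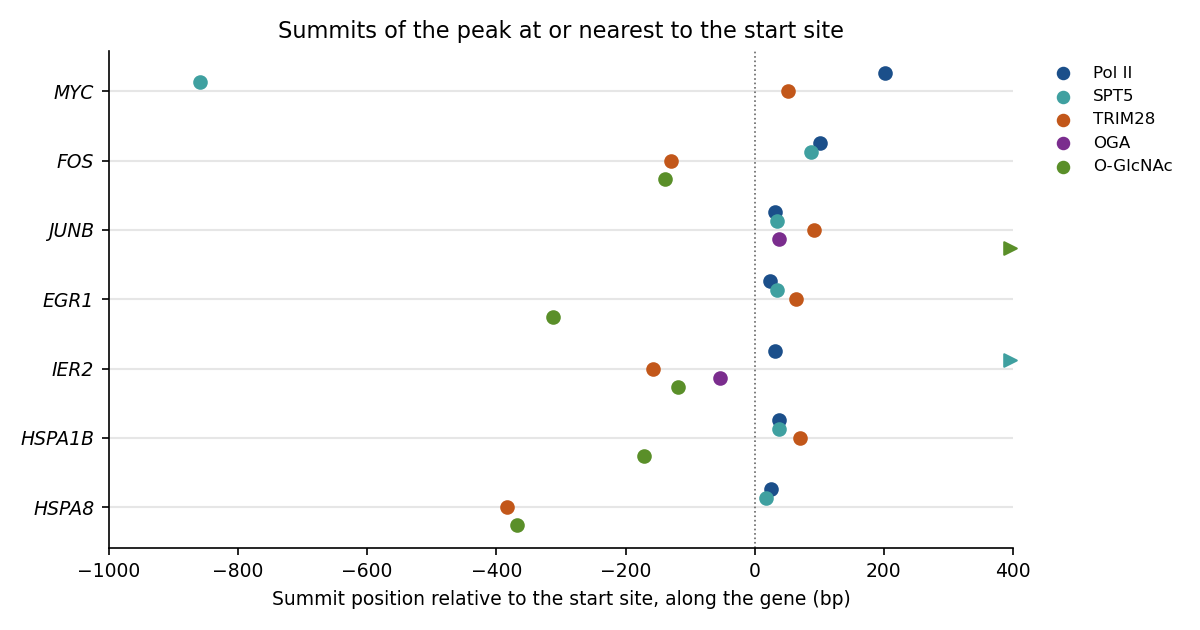
Summit of the peak over or nearest to the start, relative to that start (horizontal axis, bp along the gene), by gene and target; arrowheads at the right edge are the O-GlcNAc summit of JUNB at 2111 bp and the SPT5 summit of IER2 at 2635 bp. Pol II summits lie 23 to 201 bp after the start at all 7 genes, and O-GlcNAc summits lie 118 to 368 bp before it at 5.

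The heat shock genes, side by side, shared a Pol II peak confined to the start, an SPT5 summit within 7 bp of the Pol II summit and an upstream O-GlcNAc peak, with no OGA. These traits were not particular to them, since FOS had the same set, with SPT5 and Pol II summits 14 bp apart. The 2 heat shock genes differed in the body: SPT5 covered 67.9% of HSPA1B beyond its first 500 bp and 1.11% of HSPA8. In the windows, TRIM28 had 5 peaks at HSPA1B and 1 at HSPA8. HSPA1B has a neighbouring copy, HSPA1A, and the upstream sequences of the 2 were 93.6% identical in 251 aligned columns. How reads that match both copies were placed is not stated, so the values of HSPA1B are uncertain, and their part in this difference was not tested.

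Few peaks lay at a window edge. A TRIM28 peak of IER2 straddled it with its summit outside, at 3002 bp upstream. So did the last SPT5 peak of JUNB, with its summit 3484 bp past the gene's end. The SPT5 peak over the start of JUNB began 3072 bp upstream and crossed the edge too, but it lies over the gene. Entirely outside were an SPT5 peak of FOS 381 bp beyond the window (3.02-fold), a TRIM28 peak of FOS 639 bp beyond it (4.05-fold), and, 766 bp beyond the downstream edge of HSPA1B, a Pol II peak of 13.1-fold with an SPT5 peak of 10.8-fold. The spans carry no exon bounds, so peaks were not assigned to exons, introns or untranslated regions.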

How the data were processed

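Peaks of 5 ChIP-seq libraries of BJAB cells were used, 1 library per target. The submitters' processing notes list hg19 and the tools Bowtie2 2.1.0, Trimmomatic 0.30 and bcl2fastq 2.17. The caller of the peaks, the control and the threshold used are not stated in these notes or in the files. The lowest −log10 q of a list ran from 1.30 (SPT5) to 1.33 (OGA), so each list ends close to a q of 0.05. The deposited narrowPeak files give for each peak the authors' fold enrichment (a ratio over a background), −log10 p and −log10 q, an integer score that was not used, and the summit. Each list belongs to 1 sample, and pooling is not mentioned.

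The 8 genes, their hg19 spans and the gene and motif lists were chosen with earlier results of these data known. The start is the first base of the span on its strand. At each gene and target the peak over the start is described or, where there is none, the one with the nearest summit; others are named where they carry OGA or O-GlcNAc or are the highest, and a few were named after their values were seen. Standing is the share of the same list, on chromosomes 1 to 22 and X, with a lower fold enrichment. Over whole lists, summit distances are to whichever summit of the second target was closest. There were no replicates, so nothing was tested. The alternatives were flanks of 0, 1 and 10 kb, a −log10 q of at least 5, 50% overlap of the shorter peak, a summit distance of at most 250 bp, ranking by −log10 p and leaving out HSPA1B. The code was tested on simulated data and gave 11917 Pol II peaks overlapping TRIM28, as did bedtools 2.31.1. Python 3.11.15, numpy 2.4.6, pandas 2.3.3, biopython 1.88 and matplotlib 3.10.9 were used. Depth is unknown, so no interval was computed.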

Additional observations from a re-analysis of the deposited data

How the results depend on the processing

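Of 107 alternatives, 75 kept the value (counts within 1.5 times, other values unchanged), 31 moved and 1 turned sign. No paired analysis was possible because each target has 1 library and nothing was tested. Without flanks, 2 genes in place of 6 held an O-GlcNAc peak, and by summits within 500 bp O-GlcNAc was at 5 starts in place of 2. By summits within 250 bp, SPT5 was at 8 and O-GlcNAc at 3 of the 18 Pol II peaks. Ranking by −log10 p put the median start peak above 93.7% of the Pol II, 99.0% of the SPT5, 68.6% of the TRIM28, 66.8% of the OGA and 73.2% of the O-GlcNAc list. Without HSPA1B it stood above 92.7% for Pol II and 93.5% for SPT5, and the median cover of the gene, over the members left, went from 12.1% to 13.4% for Pol II, from 61.2% to 52.8% for SPT5 and from 7.19% to 6.24% for TRIM28. With a −log10 q of at least 5 that cover was 51.7% for SPT5 and 6.82% for TRIM28, and 1 gene in place of 2 kept a Pol II summit past its end, an alternative chosen after seeing the data, as was that of the cover beyond the first 500 bp, which fell from 48.0% to 17.9% for SPT5 at MYC and from 22.5% to 8.34% for TRIM28 at IER2. The median TRIM28 summit went from 52 to -38.5 bp without HSPA1B; the cause of these moves was not tested beyond the fewer peaks or genes that the alternatives hold by construction.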
